A study of Mus musculus with 18 samples.

Results

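Clonidine was compared with its PBS vehicle in tumours grown in mice that lack Adra2a, the gene for the alpha2A-adrenergic receptor. The comparison holds 6 of the 18 libraries of the series, chosen by their titles: 3 titled KO-Clonidine and 3 titled KO-Control. All 6 come from tumours of MC38-OVA, mouse colon carcinoma cells that carry ovalbumin as a model antigen, implanted in hosts of genotype ADRA2A-/- aged 10 weeks. KO-Clonidine hosts were injected with clonidine and KO-Control hosts with PBS, intraperitoneally and every day, and tumours were taken at day 7 after treatment. The treatment entry of the KO-Control libraries reads Untreated. The other 12 libraries are WT-Control, WT-Clonidine and WT-Guanabenz in wild-type (WT) hosts and KO-Guanabenz in knockout (KO) hosts, 3 each, and are used here only as reference levels, for the shared estimate of spread and for the difference between genotypes. The KO-Guanabenz libraries also carry the entry Untreated, which conflicts with their titles; the title was followed. The labels give no dose, no animal for each library and no sex, and the implanted cells keep their own Adra2a, so the knockout is of the host cells alone. Nothing says that the 3 libraries of a group came from separate animals, so p-values reflect the spread from library to library, and some of that spread may be technical.

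Clonidine is an agonist of alpha2-adrenergic receptors, which couple to inhibitory G proteins and lower cyclic AMP. Receptors of this class are encoded by Adra2a, Adra2b and Adra2c, and clonidine also binds imidazoline sites, for which the Nisch product has been proposed as one component. The KO comparison asks which RNAs differ under clonidine when the alpha2A receptor of the host is missing.

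Totals in units of 1e6 counts were 62.2, 127.8 and 147.6 in KO-Clonidine 1 to 3 and 66.6, 78.6 and 109.8 in KO-Control 1 to 3. KO-Clonidine 3 lay apart from the other 5 libraries on the first principal component of log2 counts per 1e6 counts (CPM), which held 27.3% of the variance. Ddx3y, Uty and Eif2s3y, which lie on the Y chromosome, had a mean level of 12.8 CPM in KO-Control 1 and 9.04 CPM in KO-Control 2, and at most 0.151 CPM in KO-Control 3 and in all 3 KO-Clonidine libraries. Y-linked transcripts and treatment thus ran partly together. Their part in the results was not tested beyond 2 alternatives given below: KO-Control 1 and 2 left out together, and a term for Y-linked transcripts in the fit. Defining markers of the labelled colon carcinoma were near 0: a list of epithelial and intestinal markers summed to between 6.98 and 9.40 CPM in KO-Clonidine and between 9.29 and 11.2 CPM in KO-Control, and the keratin gene Krt18 stayed between 0.0272 and 0.534 CPM.

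Adra2a RNA (gene 11551, chromosome 19) was scarce in all 6 libraries. Its level was 0.183, 0.293 and 0.234 CPM in KO-Clonidine 1 to 3 and 0.106, 0.231 and 0.199 CPM in KO-Control 1 to 3. The groups overlapped, with a log2 fold change of 0.40 (SE 0.35) that did not pass the test. Adra2b stood at 0.217, 0.412 and 0.361 CPM against 0.395, 0.462 and 0.235 CPM. Adra2c did not pass the filter on low counts. The imidazoline-binding candidate Nisch was far more abundant, at 256, 268 and 271 CPM against 257, 284 and 239 CPM, and its log2 fold change was 0.03 (95% interval from -0.10 to 0.16).

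Of 16125 genes tested, 3 were called at a Benjamini-Hochberg adjusted p under 0.05 in edgeR's quasi-likelihood test, which is 0.0186% of genes. All 3 were lower under clonidine: Apol8, Esp8 and Rab11fip1. No gene was called higher, while 442 genes had a higher level at an unadjusted p under 0.05 (2.74%) and 448 a lower one (2.78%). DESeq2 called 29 genes, 13 higher and 16 lower, among them the same 3 and the Y-linked gene Ddx3y. The median log2 fold change over all genes was 0.001, with quartiles of -0.093 and 0.083.

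Apol8 encodes a member of the apolipoprotein L family, intracellular lipid-binding proteins of which several are induced by interferons. Apol8 (gene 239552, chromosome 15, 77745109 to 77757062, GRCm38.p6) held 20.7, 25.6 and 14.6 CPM in KO-Clonidine 1 to 3 and 59.8, 50.6 and 56.7 CPM in KO-Control 1 to 3. Every clonidine library lay below every control library, with means of 20.3 ± 5.51 and 55.7 ± 4.70 CPM (SD, n = 3 each). The level fell 2.75-fold, a log2 fold change of -1.46 (SE 0.19, edgeR adjusted p = 0.01471). The other 12 libraries ran from 20.9 to 41.9 CPM, so all 3 control libraries were above that range and 2 of the 3 clonidine libraries were below it. KO-Control 3, which lacks the Y-linked transcripts as the clonidine libraries do, held 56.7 CPM, beside 59.8 and 50.6 CPM in KO-Control 1 and 2. This is 1 library, and the part of Y-linked status in the Apol8 difference was not tested by it.

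Esp8 encodes a member of the exocrine gland-secreted peptides, small peptides known from tear and salivary glands of mice. Esp8 (gene 100126778, chromosome 17, 40520022 to 40530702) was low throughout: 0.584, 0.301 and 0.212 CPM in KO-Clonidine against 2.58, 3.40 and 2.23 CPM in KO-Control. These levels rest on 30 to 38 estimated counts in the clonidine libraries and 170 to 265 in the control libraries. The log2 fold change was -2.97 (SE 0.42, edgeR adjusted p = 0.01471), a 7.81-fold lower level. All 3 control libraries were above the 0.421 to 1.49 CPM of the other 12 libraries. Esp8 belongs to a family of related genes. How estimated counts were divided among them was not examined, and its counts were low, so its level is uncertain.

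Rab11fip1 encodes an effector of the small GTPase Rab11 that returns cargo from recycling endosomes to the cell surface. Rab11fip1 (gene 75767, chromosome 8, 27138773 to 27174646) held 15.1, 14.8 and 13.8 CPM in KO-Clonidine and 32.3, 26.3 and 27.2 CPM in KO-Control. The groups were well apart, with means of 14.5 ± 0.694 CPM in KO-Clonidine and 28.6 ± 3.23 CPM in KO-Control (SD, n = 3 each). The level fell 1.96-fold, a log2 fold change of -0.97 (SE 0.14, edgeR adjusted p = 0.01471). All 3 control libraries again exceeded the other 12 libraries, which ran from 14.1 to 24.5 CPM.

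The direction of all 3 genes was negative in each of the 18 alternative analyses, but the call was not stable. The highest adjusted p over these alternatives was 0.26 for Apol8, 0.556 for Esp8 and 0.21 for Rab11fip1. With edgeR, 0 genes were called without KO-Clonidine 3 (605 at an unadjusted p under 0.05), without KO-Control 1 (1435), in a fit of the compared groups alone (632) and with the KO-Guanabenz libraries read as KO-Control (1231). A block for the replicate number also gave 0 calls (865). Without KO-Clonidine 1 only Esp8 was called, and without KO-Clonidine 2, without KO-Control 2 or with a term for Y-linked transcripts only Apol8. Without KO-Control 1 and 2 together, none of the 3 was called, and the 1 gene called was Tex13b.

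**Figure D1:**
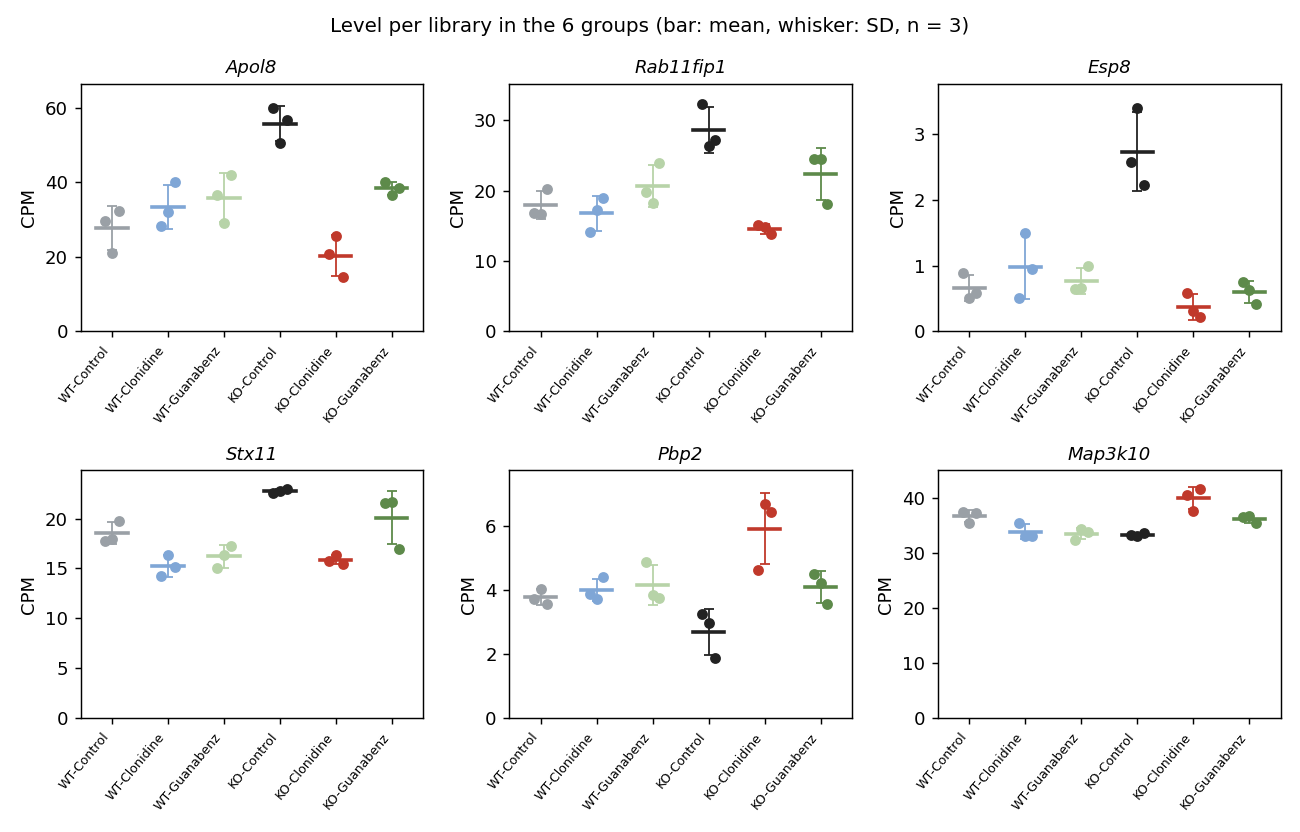
Level in CPM (y axis, from 0) of 6 genes in each library of the 6 groups (x axis); points are libraries, bars group means and whiskers the SD (n = 3). Apol8, Rab11fip1, Esp8 and Stx11 have their highest group mean in KO-Control, Pbp2 its lowest in KO-Control, and Map3k10 its highest in KO-Clonidine.

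The 250 bases before a RefSeq start site of Apol8 and Esp8 are shown because these genes had the largest fold changes among the called genes. They are RefSeq sequence of GRCm38.p6, 5′ to 3′ on the gene's strand. The start site used for Apol8 lies inside the gene span given above, so its window overlaps the 5′ end of that span.
Apol8 promoter (chr15:77757011-77757260, minus strand): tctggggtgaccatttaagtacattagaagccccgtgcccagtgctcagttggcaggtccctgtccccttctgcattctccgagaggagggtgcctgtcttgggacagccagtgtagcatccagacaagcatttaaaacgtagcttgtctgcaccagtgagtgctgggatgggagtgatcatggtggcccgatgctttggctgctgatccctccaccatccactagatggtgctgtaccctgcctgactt
Esp8 promoter (chr17:40519772-40520021, plus strand): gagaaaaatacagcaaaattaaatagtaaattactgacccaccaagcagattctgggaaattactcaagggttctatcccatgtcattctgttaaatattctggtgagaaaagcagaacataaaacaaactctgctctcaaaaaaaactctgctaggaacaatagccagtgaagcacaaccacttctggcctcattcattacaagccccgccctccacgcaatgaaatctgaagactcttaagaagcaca
Neither window holds any of the 3 motifs searched below in the endoplasmic reticulum genes, and no window for Rab11fip1 was used here.

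No relative of the called genes was called. Of 10 tested apolipoprotein L genes, 4 had a positive and 6 a negative fold change, with a median of -0.089, and Apol8 was the 1 member called. Apol8 lies on chromosome 15 among its relatives, whose levels overlapped between the groups: Apol9b had a log2 fold change of -0.16 (SE 0.16), Apol9a 0.04 (SE 0.17), Apol7a -0.36 (SE 0.22) and Apol7e -0.19 (SE 0.24). Apol11b went the other way, at 0.817, 0.966 and 4.65 CPM in KO-Clonidine against 0.106, 0.513 and 0.317 CPM in KO-Control. Its log2 fold change of 2.77 (SE 1.00) had an unadjusted p of 0.01373 and did not pass the test, and 1 library, KO-Clonidine 3, held most of it.

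Among 20 tested genes of Rab11 effectors and recycling endosomes, 7 were positive and 13 negative, with a median of -0.043. Besides Rab11fip1, the related effectors Rab11fip2 and Rab11fip4 had lower levels without overlap between groups, as did 4.43% of all genes. Rab11fip2 held 10.5, 11.4 and 9.79 CPM against 13.2, 12.7 and 13.3 CPM, a log2 fold change of -0.30 (SE 0.12, unadjusted p = 0.01964). Rab11fip4 had a log2 fold change of -0.55 (SE 0.25, unadjusted p = 0.04498) at about 1 CPM, and neither passed the adjusted test in edgeR or DESeq2. The GTPase genes themselves overlapped between the groups, with log2 fold changes of -0.003 (SE 0.054) for Rab11a and 0.06 (SE 0.05) for Rab11b. Of 15 Esp genes, 2 were tested, and the second, Esp6, had a log2 fold change of -0.86 (SE 0.51) at no more than 0.244 CPM.

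With group means removed, the genes most like each called gene across the 18 libraries were Shisal2b (Pearson r = 0.888), Dffb (0.884) and Alas1 (0.850) for Apol8, Glmn (0.844), Zfp108 (0.790) and Mtmr10 (0.752) for Esp8, and Ccdc73 (0.838), Mms19 (0.838) and Rasal1 (0.813) for Rab11fip1. These r values describe residuals that share library and depth. Of these genes, Dffb, the caspase-activated DNase, had the largest difference in the comparison, at 52.7, 54.5 and 36.8 CPM in KO-Clonidine against 65.1, 68.2 and 67.4 CPM in KO-Control (log2 fold change -0.48, SE 0.14), and the groups did not overlap.

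Below the threshold, 12 genes with higher and 10 with lower levels under clonidine were named for their small p. The choice was limited to genes whose log2 CPM averaged 0 or more and whose clonidine and control libraries lay fully apart, so that the lack of overlap was part of it (8.83% of all genes tested had no overlap). Pbp2, a phosphatidylethanolamine-binding protein gene, was the highest ranked with a positive sign. It held 4.64, 6.70 and 6.45 CPM in KO-Clonidine and 3.25, 2.96 and 1.89 CPM in KO-Control. Its log2 fold change was 1.14 (SE 0.19, edgeR adjusted p = 0.07041), and limma-voom and DESeq2 called it. Stx11, a SNARE protein gene needed for the release of cytotoxic granules, was tight within groups, at 15.8, 16.4 and 15.5 CPM against 22.6, 22.8 and 23.0 CPM. Its log2 fold change was -0.52 (SE 0.09, edgeR adjusted p = 0.0756), and it was called by DESeq2 and when the KO-Guanabenz libraries were left out.

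Of the remaining lower genes, Mavs and Cd1d1 have known immune roles. Mavs, the adaptor of cytosolic RNA sensors, held 47.5, 49.8 and 42.0 CPM against 61.1, 60.3 and 75.6 CPM (log2 fold change -0.50, SE 0.10). Cd1d1, which presents lipid antigens to NKT cells, held 4.34, 4.95 and 4.53 CPM against 5.91, 6.42 and 7.45 CPM (log2 fold change -0.52, SE 0.11). The other lower genes were D7Ertd443e (-1.34), Nudt19 (-0.52), Zfp882 (-0.68), the lysosomal membrane gene Sidt2 (-0.42), the adhesion gene Cntn4 (-1.69), the cold-inducible RNA-binding gene Cirbp (-0.60) and the histone demethylase gene Kdm1b (-0.74), all as log2 fold changes. Their edgeR adjusted p values ran from 0.2833 for Nudt19 to 0.4781 for Kdm1b, so none passed in edgeR, while DESeq2 called all 7 of them and both Mavs and Cd1d1.

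Among the higher genes, Serpinh1, the collagen-specific chaperone of the endoplasmic reticulum (ER), was the most abundant. Serpinh1 held 1400, 1050 and 1360 CPM in KO-Clonidine and 971, 867 and 892 CPM in KO-Control, with a log2 fold change of 0.48 (SE 0.10, edgeR adjusted p = 0.3561). Tmod2, an actin-capping tropomodulin gene, held 3.80, 5.33 and 5.72 CPM against 2.28, 1.83 and 1.47 CPM, a log2 fold change of 1.42 (SE 0.31). Map3k10, a mixed-lineage kinase gene, had a small but even difference, 40.6, 37.7 and 41.6 CPM against 33.2, 33.0 and 33.6 CPM (log2 fold change 0.26, SE 0.05). The rest were Rmi2 (0.65), Ehbp1l1 (0.28), Sh3gl3 (0.69), Nedd4l (0.30), Gpr180 (0.28), Atg16l2 (0.35), Neto2 (1.14) and the dynamin gene Dnm1 (0.44), again as log2 fold changes with edgeR adjusted p values from 0.3561 for Sh3gl3 to 0.4781 for Dnm1. DESeq2 called all of these higher genes except Dnm1.

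The group that stood apart from the remaining libraries was more often the control. Of the 25 genes named by smallest p, including the 3 called, all 3 KO-Control libraries lay outside the range of the 12 libraries of the other groups in 12 genes, and all 3 KO-Clonidine libraries in 1, Map3k10. With at least 2 of 3 libraries outside, the counts were 20 genes for KO-Control and 9 for KO-Clonidine. These genes were chosen for their difference between the 2 groups, so the counts describe where the difference lay and carry no test.

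Genes of ER chaperones and the unfolded protein response had mostly positive fold changes under clonidine in KO hosts, by small amounts. This programme refolds or removes misfolded secretory proteins, and its sensors switch on chaperone genes through the ER stress element in their promoters. Of 20 tested members, 18 had a positive log2 fold change, with a median of 0.192 beside 0.001 for all genes, and 0 were called by edgeR or DESeq2. At an unadjusted p under 0.05, 12 members were higher, where 2.74% of all genes were, and 9 were higher without overlap, where 4.4% of all genes were. This list and those below were chosen with earlier results of these data known, so such shares carry no test. The summed level of the list was 8622 to 10050 CPM in KO-Clonidine and 7956 to 8701 CPM in KO-Control, so the ranges touched.

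Sdf2l1, a cofactor of ER chaperones, had the smallest p of the list. It held 95.2, 91.5 and 108 CPM in KO-Clonidine and 81.5, 67.8 and 65.2 CPM in KO-Control, a log2 fold change of 0.46 (SE 0.13, unadjusted p = 0.00267, adjusted p = 0.6291 in edgeR). Creld2, an ER-resident disulfide isomerase-like gene, held 105, 97.1 and 115 CPM against 94.9, 73.1 and 72.4 CPM (log2 fold change 0.40, SE 0.12). Dnajb11, a co-chaperone of BiP, held 191, 178 and 204 CPM against 176, 146 and 145 CPM (log2 fold change 0.29, SE 0.09). In each of these 3 genes every clonidine library was above every control library, and KO-Control 1 was the control library nearest to them.

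Hspa5, which encodes the master chaperone BiP, was one of the most abundant members. Hspa5 held 1521, 1502 and 1634 CPM in KO-Clonidine and 1385, 1321 and 1279 CPM in KO-Control, a log2 fold change of 0.22 (SE 0.10). The lectin chaperone gene Calr held 1940, 1610 and 1890 CPM against 1650, 1610 and 1420 CPM (log2 fold change 0.22, SE 0.08), with KO-Clonidine 2 inside the control range. Xbp1, the transcription factor of the programme, was at 0.11 (SE 0.07), and the 2 negative members were Derl3 (-0.36, SE 0.36) and Dnajb9 (-0.05, SE 0.11).

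Promoters of Creld2, Hspa5 and Calr are shown because they hold the ER stress element, in capitals, as 9 of the 18 list members with a window did. The windows of Sdf2l1, which had the smallest p of the list, and of Dnajb11 held 0 copies. That of Derl3, a member with a negative fold change, held 1. The element is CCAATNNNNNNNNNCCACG, searched on both strands of the 250 bases before each RefSeq start site of GRCm38.p6.
Creld2 promoter (chr15:88819396-88819645, plus strand): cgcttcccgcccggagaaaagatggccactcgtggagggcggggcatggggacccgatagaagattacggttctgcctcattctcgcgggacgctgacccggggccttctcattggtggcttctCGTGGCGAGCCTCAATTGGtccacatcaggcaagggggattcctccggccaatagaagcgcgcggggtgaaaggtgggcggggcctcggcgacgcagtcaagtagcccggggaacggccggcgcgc
Hspa5 promoter (chr2:34771840-34772089, plus strand): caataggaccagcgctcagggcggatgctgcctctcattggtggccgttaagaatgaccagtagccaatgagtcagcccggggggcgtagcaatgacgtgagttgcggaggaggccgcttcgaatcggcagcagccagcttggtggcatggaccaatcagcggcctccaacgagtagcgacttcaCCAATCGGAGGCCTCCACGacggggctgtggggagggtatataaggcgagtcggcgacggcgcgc
Calr promoter (chr8:84846932-84847181, minus strand): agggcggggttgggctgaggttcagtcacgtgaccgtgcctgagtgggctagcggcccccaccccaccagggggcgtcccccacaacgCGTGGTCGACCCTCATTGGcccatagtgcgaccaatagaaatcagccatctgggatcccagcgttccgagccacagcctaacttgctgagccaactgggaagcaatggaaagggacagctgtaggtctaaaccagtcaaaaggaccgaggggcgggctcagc
In Creld2 and Calr the capitals are the element on the opposite strand. It was found in 6 of the 10 members with a window that were higher at an unadjusted p under 0.05 (60.0%), in 3 of the other 8 (37.5%) and in 20 of 12684 tested genes with a window (0.158%). A second form of the element, ERSE-II, was in 1 of 18 members, Herpud1, and the cyclic AMP element TGACGTCA in 0 of 18, beside 0.0552% and 2.70% of tested genes. The element is a known property of these genes, and its presence says nothing of whether it was used here.

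**Figure D2:**
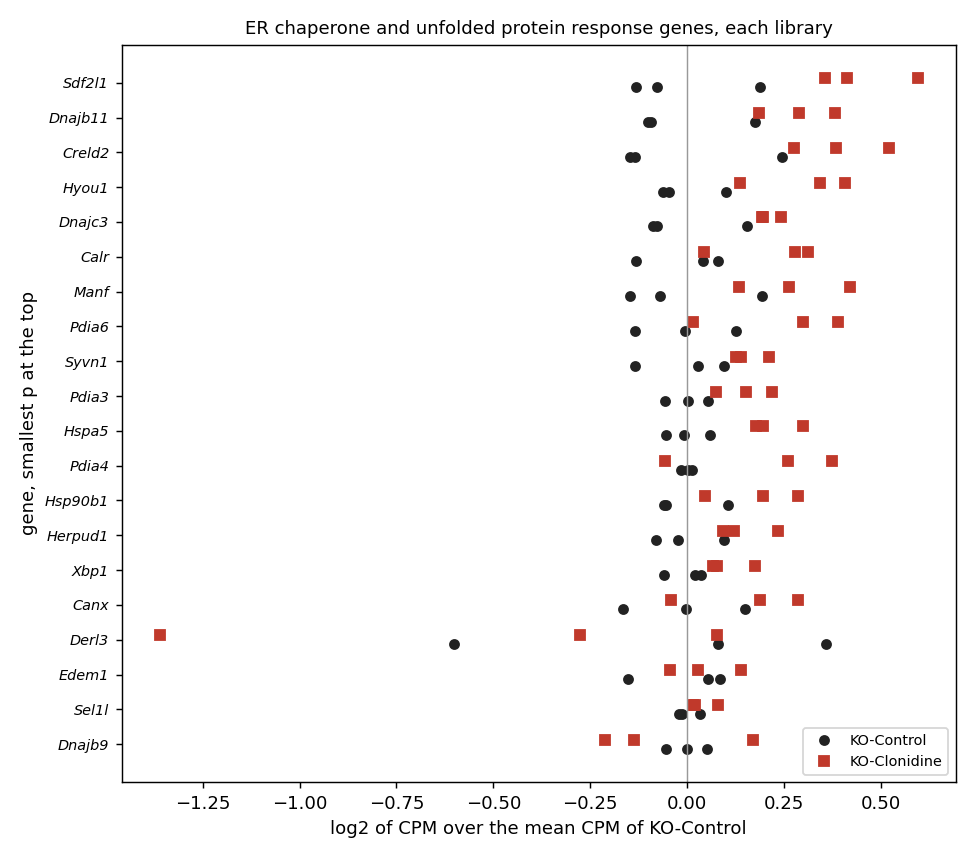
Log2 of CPM over the KO-Control mean (x axis) of the 20 genes of ER chaperones and the unfolded protein response (y axis, smallest p at the top) in the 3 KO-Control libraries (circles) and the 3 KO-Clonidine libraries (squares). The clonidine libraries lie to the right of all control libraries for Sdf2l1, Dnajb11 and Creld2, and the groups mix for Derl3 and Dnajb9.

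The same list had 19 of 20 members positive in WT hosts, with a median of 0.125. The difference between the KO and WT effects had a median of 0.082 over the list. For it, 0 of 20 members had an unadjusted p under 0.05, where 8.94% of all genes had. The WT level of Sdf2l1 was 92.2 ± 6.38 CPM in WT-Control and 110 ± 15.5 CPM in WT-Clonidine, against 71.5 ± 8.74 and 98.2 ± 8.68 CPM in the KO groups (SD, n = 3 each). KO-Control thus had the lowest mean of these groups. Without KO-Clonidine 3, the count of members higher at an unadjusted p under 0.05 fell from 12 to 4 and the median to 0.12. The count was 7 without KO-Clonidine 1 and 6 without KO-Control 2 or 3. It was 8 with total-count scaling, with the Y-linked term and with the compared groups alone. The median was 0.15 with total-count scaling and 0.24 without KO-Control 1 and 2 together.

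Heat shock genes, the cytosolic counterpart, had 11 of 14 members positive with a median of 0.093. Hsph1, a nucleotide exchange factor for Hsp70, held 199, 180 and 219 CPM in KO-Clonidine and 173, 133 and 154 CPM in KO-Control (log2 fold change 0.38, SE 0.15). Hspa8, the constitutive Hsp70, held 2740, 2860 and 2790 CPM against 2450, 2500 and 2140 CPM (log2 fold change 0.24, SE 0.10). Both were without overlap between groups. Inducible Hspa1b differed mainly in KO-Clonidine 3, at 17.1, 25.6 and 60.9 CPM against 18.3, 26.6 and 16.0 CPM. These were the 3 members higher at an unadjusted p under 0.05 (2.74% of all genes were). There were 0 without KO-Clonidine 3, 1 without KO-Control 3 and 5 with KO-Guanabenz read as KO-Control.

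Fibroblast and matrix genes leaned upward, with 18 of 23 positive, a median of 0.169 and 6 higher at an unadjusted p under 0.05, where 2.74% of all genes were. Col1a1, the main chain of type I collagen, held 4180, 3460 and 5200 CPM in KO-Clonidine and 3670, 2940 and 2350 CPM in KO-Control (log2 fold change 0.52, SE 0.17, unadjusted p = 0.007116). Its partner chain Col1a2 had a log2 fold change of 0.30 (SE 0.10) and the matrix glycoprotein gene Sparc 0.24 (SE 0.10). The groups overlapped for all 3 genes, since KO-Clonidine 2 was below KO-Control 1. Without KO-Clonidine 3 the list's median was -0.03 with 1 member higher at an unadjusted p under 0.05, and without KO-Control 1 and 2 together it was 0.44 with 9. With KO-Guanabenz read as KO-Control it was 0.04 with 2, and leaving out any other single library gave 0.14 to 0.33 with 2 to 9. In bulk tumour RNA, more cells of a type and more RNA per cell cannot be told apart.

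Erythroid genes had the highest median of the lists, 0.766, with 10 of 11 positive and 5 higher at an unadjusted p under 0.05, where 2.74% of all genes were. The alpha-globin gene Hba-a1 held 450, 320 and 1280 CPM in KO-Clonidine and 122, 322 and 181 CPM in KO-Control. Alas2, the first enzyme of erythroid haem synthesis, held 10.4, 8.26 and 34.1 CPM against 2.77, 7.40 and 4.90 CPM (log2 fold change 1.81, SE 0.77, unadjusted p = 0.03112). KO-Clonidine 3 was the highest library for both, and without it the median was 0.34 with 0 members at an unadjusted p under 0.05. That count was also 0 without KO-Control 1, without KO-Control 3, without KO-Control 1 and 2 together and with the Y-linked term. Globin genes are near-identical copies, so their estimated counts are uncertain.

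Skeletal muscle genes leaned the other way, with 18 of 20 negative and a median of -0.409, and their summed level ran from 127.5 to 324.7 CPM in KO-Clonidine and from 242.4 to 340.8 CPM in KO-Control. Myoglobin, Mb, was the 1 member lower at an unadjusted p under 0.05, where 2.78% of all genes were, at 3.95, 2.99 and 1.42 CPM against 6.02, 4.83 and 5.99 CPM. The median was -0.77 with 7 members lower without KO-Clonidine 1, -0.36 with 3 without KO-Clonidine 2, -0.09 with 0 without KO-Clonidine 3 and -0.05 with 0 when KO-Guanabenz was read as KO-Control. The count was also 0 without KO-Control 1 or KO-Control 3, with medians of -0.56 and -0.27. Skin epidermis genes, 16 of 18 negative with a median of -0.204, had a median of 0.24 without KO-Clonidine 3, 0.11 without KO-Control 3 and -0.69 without KO-Control 1 and 2 together. KO-Clonidine 3 thus held the highest erythroid and the lowest muscle and epidermal levels of the 6 libraries, and the part of the makeup of that sample in the gene differences above was not tested.

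**Figure D3:**
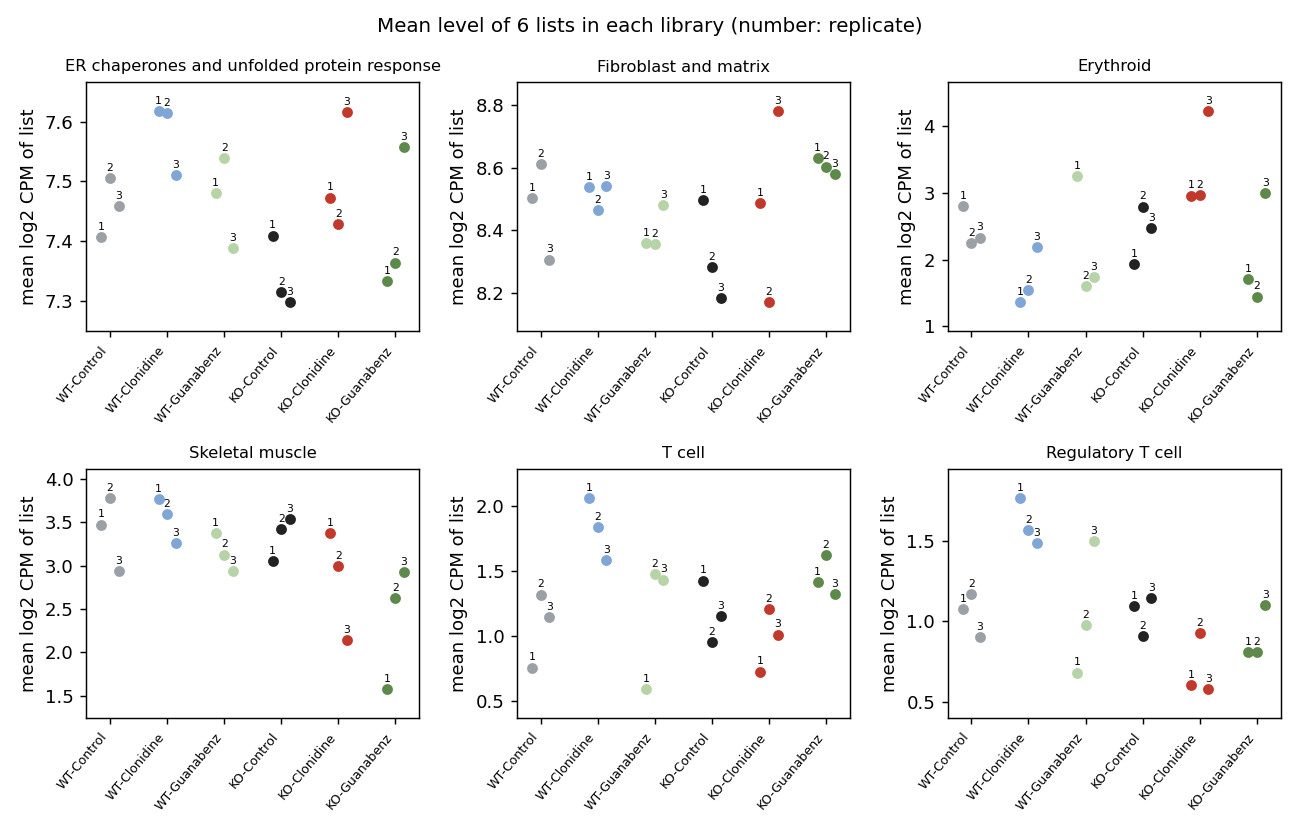
Mean log2 CPM (y axis) of 6 gene lists in each library of the 6 groups (x axis), with the replicate number beside each point. By this mean, KO-Clonidine 3 is the highest KO-Clonidine or KO-Control library for the ER, fibroblast and erythroid lists and the lowest for skeletal muscle and regulatory T cells. In summed CPM it is the highest of them for regulatory T cells.

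T cell genes had mostly negative fold changes in KO hosts, and their levels overlapped between the groups. In KO hosts 12 of 17 tested members were negative with a median of -0.233, and their summed level was 34.0, 48.3 and 43.4 CPM in KO-Clonidine 1 to 3 and 55.5, 39.7 and 44.7 CPM in KO-Control 1 to 3. Cd6 and Cd5, co-receptors of the scavenger receptor family that dampen T cell activation, were the 2 members lower at an unadjusted p under 0.05, where 2.78% of all genes were. Cd6 held 0.950, 1.90 and 1.27 CPM against 3.33, 1.58 and 2.19 CPM (log2 fold change -0.77, SE 0.28), and Cd5 0.917, 1.28 and 0.955 CPM against 1.93, 1.23 and 1.84 CPM (log2 fold change -0.66, SE 0.24). The groups overlapped for both. The median was -0.01 without KO-Control 1 and -0.12 without KO-Clonidine 1, with 0 members lower at an unadjusted p under 0.05 in either. It was -0.09 with 1 such member without KO-Control 1 and 2 together, and -0.05 with 4 with the Y-linked term.

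In WT hosts the same 17 genes were all positive under clonidine, with a median of 0.767. The WT comparison itself had 0 of 16125 genes called in edgeR (smallest adjusted p = 0.06647), with 12.9% at an unadjusted p under 0.05. The KO effect minus the WT effect was negative in 17 of 17 members, with a median of -0.795 and 10 members at an unadjusted p under 0.05, where 8.94% of all genes were. For Cd6 this difference was -1.93 (SE 0.40, unadjusted p = 0.000159) and for Cd5 -1.61 (SE 0.34). In edgeR 0 members passed at an adjusted p under 0.05, while DESeq2 called Cd6 (adjusted p = 0.00241) and Cd5 (adjusted p = 0.0076). KO-Clonidine 1 had the lowest T cell level of the 6 KO libraries.

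Regulatory T cell genes had 8 of 10 members negative in KO hosts with a median of -0.333. Their summed level overlapped between the groups, at 28.38, 31.95 and 33.71 CPM in KO-Clonidine 1 to 3 and 33.67, 32.6 and 32.98 CPM in KO-Control 1 to 3. KO-Clonidine 3 was thus the highest library in summed level, though the lowest in mean log2 CPM (0.578, beside 0.604 in KO-Clonidine 1). Ctla4, the inhibitory receptor, held 0.917, 1.23 and 0.637 CPM in KO-Clonidine and 1.61, 1.42 and 1.71 CPM in KO-Control, without overlap (log2 fold change -0.77, SE 0.35, unadjusted p = 0.04027). Foxp3, the lineage factor, held 1.32, 2.36 and 0.948 CPM against 2.11, 2.08 and 2.49 CPM (log2 fold change -0.53, SE 0.29). In WT hosts all 10 were positive with a median of 0.558. The difference was negative for 9 of 10 members. For it, 7 of the 10 had an unadjusted p under 0.05, where 8.94% of all genes had, and 0 passed the adjusted test in edgeR or DESeq2. Ctla4 was the 1 member lower at an unadjusted p under 0.05 within KO hosts, where 2.78% of all genes were. That count was 4 without KO-Clonidine 2, 2 without KO-Control 2, 0 without any 1 of the other 4 libraries and 5 with the Y-linked term.

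Adrenergic receptors and their signalling genes differed little between KO-Clonidine and KO-Control. Of 8 tested adrenergic receptor genes, 4 were positive and 4 negative and 0 had an unadjusted p under 0.05. Adrb1, the beta1 receptor, had the largest value, at 0.650, 1.27 and 1.03 CPM against 0.441, 0.718 and 0.507 CPM (log2 fold change 0.84, SE 0.42). Among 34 genes of inhibitory G protein and cyclic AMP signalling the median was 0.014, and the 2 at an unadjusted p under 0.05 were Rgs16, a brake on G protein signalling, at 0.66 (SE 0.24), and the adenylyl cyclase gene Adcy3, at 0.46 (SE 0.21). Over all genes, 5.52% were at such a p, so the list was near that share. Slc6a2, the noradrenaline transporter of sympathetic nerve endings, held 0.05, 0.111 and 0.149 CPM against 0.243, 0.231 and 0.245 CPM. Its log2 fold change was -1.12 (SE 0.36, unadjusted p = 0.006652), resting on 3, 14 and 21 counts against 16, 18 and 27.

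Cholesterol synthesis genes were negative in 20 of 21 members, by small amounts, with a median of -0.143 and 0 members at an unadjusted p under 0.05. Msmo1, a sterol demethylation enzyme, held 86.2, 74.2 and 75.9 CPM in KO-Clonidine and 89.3, 94.3 and 126 CPM in KO-Control (log2 fold change -0.39, SE 0.19). The list's median was -0.05 without KO-Control 3 and -0.28 without KO-Control 1 and 2 together, where 4 members were lower at an unadjusted p under 0.05. That count was 3 without KO-Control 2 and 3 without the KO-Guanabenz libraries. Ribosomal protein genes were positive in 23 of 25 with a median of 0.051, inside the quartiles of all genes, while the WT effect was negative in 25 of 25 with a median of -0.184. Hypoxia and glycolysis genes had a median of 0.011 in KO hosts and -0.501 in WT hosts, with 7 of 26 members at an unadjusted p under 0.05 for the difference. For ribosomal protein genes that count was 18 of 25. Over all genes 8.94% had such a p for the difference, and 0 members of either list passed the adjusted test in edgeR.

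Of 48 lists in all, 25 held a member at an unadjusted p under 0.05 and 3 held a called gene. Lists had 2 to 34 tested members, and 5.52% of all genes were at such a p. The count of 25 was not compared with what list size alone would give. The 3 lists with a called gene are the apolipoprotein L, Rab11 effector and exocrine gland-secreted peptide lists, the families of the called genes. Lists were chosen with earlier results of these data known, so the count of 3 is not a finding. Among list members without overlap between the groups were Socs1, a feedback inhibitor of cytokine signalling, at 0.35 (SE 0.09), the p53 target Phlda3 at 0.31 (SE 0.08), the immediate early gene Nr4a1 at 0.38 (SE 0.16), the serine synthesis enzyme gene Phgdh at -0.34 (SE 0.13), the glucocorticoid-induced kinase gene Sgk1 at -0.28 (SE 0.12) and the clock repressor gene Cry2 at -0.20 (SE 0.09). All are log2 fold changes at an unadjusted p under 0.05, and 0 of them passed the adjusted test in edgeR or DESeq2. Macrophage and monocyte genes had a median of 0.038 with 0 of 18 members at an unadjusted p under 0.05, and endothelial genes -0.04 with 0 of 16.

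**Figure D4:**
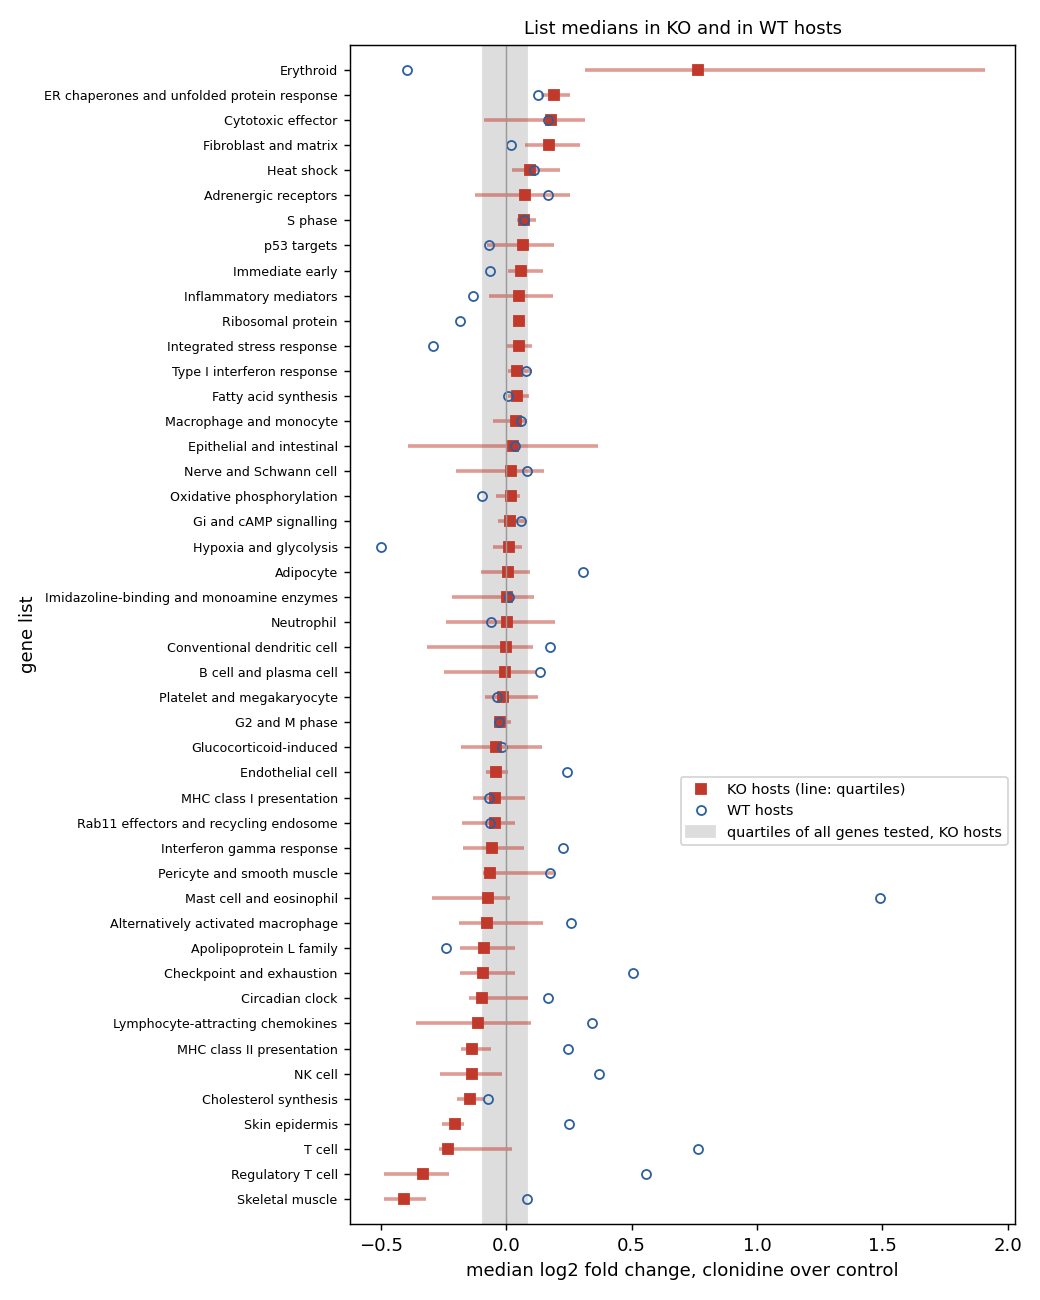
Median log2 fold change of clonidine over control (x axis) for 46 gene lists (y axis) in KO hosts (squares, lines from the first to the third quartile of members) and in WT hosts (open circles), with the quartiles of all genes in KO hosts as a grey band. Of the lists shown, the erythroid list is highest in KO hosts at 0.766 and skeletal muscle lowest at -0.409. Left out are the Y-linked and X-inactivation genes (median -4.939) and the exocrine gland-secreted peptides (-1.91), both lower still.

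The difference between the KO and WT effects was tested for every gene. It gave 0 calls among 16125 genes in edgeR, with 1442 at an unadjusted p under 0.05 (8.94%), while DESeq2 gave 37 calls. The smallest adjusted p was 0.05721, shared by Apol8 (difference -1.73, SE 0.27), Esp8 (-3.56, SE 0.57) and Sh3gl3 (1.45, SE 0.22). Sh3gl3, an endophilin gene of endocytosis, held 5.97, 5.38 and 7.74 CPM in KO-Clonidine and 4.00, 4.62 and 3.28 CPM in KO-Control. In WT hosts it went the other way, 3.83, 3.47 and 4.02 CPM in WT-Clonidine against 6.87, 6.82 and 5.52 CPM in WT-Control. Rab11fip1, the third called gene in KO hosts, had a difference of -0.88 (SE 0.20, edgeR adjusted p = 0.3322).

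Map3k10 and Kcnt2, a potassium channel gene, were the other 2 of the 5 genes with the smallest p for this difference. Map3k10 had a difference of 0.38 (SE 0.07), with 35.4, 33.1 and 33.0 CPM in WT-Clonidine against 37.4, 35.5 and 37.3 CPM in WT-Control. Kcnt2 had a difference of -2.57 (SE 0.52), from 2.15, 1.26 and 1.46 CPM in KO-Clonidine against 6.34, 4.69 and 2.05 CPM in KO-Control, and from 4.99, 4.51 and 6.19 CPM in WT-Clonidine against 2.18, 2.02 and 2.85 CPM in WT-Control. In both genes the WT groups did not overlap and were ordered opposite to the KO groups, and neither difference passed at an adjusted p under 0.05 in edgeR, while DESeq2 called both, with adjusted p values of 0.00181 for Map3k10 and 0.000603 for Kcnt2.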

How the data were processed

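Values are estimated counts, deposited as whole numbers; the authors used Trim Galore 0.6.5 and kallisto 0.46.0 with GRCm38, per the submitters' processing notes. How transcripts were summed to genes, and strandedness, are not given in the sources used here; antisense partners then cannot be told apart, and near-identical genes are uncertain. Of 21015 genes, 20994 matched RefSeq symbols of GRCm38.p6. Here, filterByExpr kept 16125 genes, and edgeR 4.0.16 under R 4.3.3 fitted 6 group means to all 18 libraries after TMM scaling, giving a biological coefficient of variation of 0.145. Tests were two-sided, and log2 CPM used a prior count of 2. Named genes were the called genes, the 12 per direction with the smallest p, no overlap and log2 CPM averaging 0 or more, up to 3 per list, 5 for the genotype difference, the key genes and families, and the 3 most alike. Members and lists were chosen with earlier results of these data known. Lists carry no test. Alternatives used DESeq2 1.42.0, limma 3.58.1, other scalings and filters, the replicate number, fewer groups and each library left out; leaving out the KO-Control libraries with Y-linked transcripts was added after seeing the data. The script was tested on simulated data.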

Additional observations from a re-analysis of the deposited data

Results flagged for a closer look

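In 8 lists, every clonidine library of KO hosts lay on one side of its control mean and every clonidine library of WT hosts on the other, in mean log2 CPM of the list; none of these differences was tested. Given as the KO shift minus the WT shift, the value was 1.75 for erythroid genes, from shifts of 0.56, 0.57 and 1.83 in KO-Clonidine 1 to 3 and -1.10, -0.91 and -0.28 in WT-Clonidine 1 to 3. It was -0.90 for regulatory T cell genes, from -0.44, -0.12 and -0.47 against 0.72, 0.52 and 0.44. For lymphocyte-attracting chemokines it was -0.67, for NK cell genes -0.53 and for interferon gamma response genes -0.34. It was 0.32 for the apolipoprotein L family, whose called member Apol8 has the opposite sign, 0.24 for ribosomal protein genes and -0.19 for imidazoline-binding and monoamine enzymes. Several of these lists barely moved in some libraries. The shift nearest 0 in KO hosts was -0.03 for the chemokines, -0.01 for NK cell genes and -0.02 for interferon gamma response genes. It was 0.01 for the apolipoprotein L family and 0.04 for ribosomal protein genes. For imidazoline-binding and monoamine enzymes the WT shifts were 0.05, 0.01 and 0.01.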

How the results depend on the processing

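For clonidine against control in KO hosts, 3 genes were called in the reported analysis. The count was 29 with DESeq2, 0 with the compared groups alone, 0 with KO-Guanabenz read as KO-Control, 1 with a term for Y-linked transcripts (Apol8) and 1 without the KO-Control libraries that hold them (Tex13b). Leaving out 1 library gave 0 to 3. For the difference between KO and WT, with 0 calls as reported, the count was 37 with DESeq2, 2 with limma-voom, 3 with no low-count filter and 2 with the Y-linked term, and 0 to 2 when 1 library was left out. Whether replicate numbers pair the samples was not settled. Correlations of deviations between KO-Clonidine and KO-Control of the same number were 0.094, -0.010 and -0.331. On the second principal component (25.7% of the variance), these 2 groups stood at -25.4 and -25.6 for replicate 1. They stood at 20 and 30.1 for replicate 2, and at -7.7 and 8.5 for replicate 3. The replicate block gave 0 calls in KO hosts and 0 erythroid genes at an unadjusted p under 0.05. Of 82 named gene results, 75 kept their sign in each alternative run. Adra2b, reported at -0.10, was 0.03 with the Y-linked term, 0.51 without those KO-Control libraries and between -0.35 and 0.12 when 1 library was left out. Nisch was -0.01 with total-count scaling, -0.03 with KO-Guanabenz read as KO-Control and between -0.03 and 0.10 when 1 library was left out. Rab11a was 0 with no low-count filter, 0.04 with KO-Guanabenz read as KO-Control, 0.05 without the KO-Control libraries with Y-linked transcripts and between -0.03 and 0.02 when 1 library was left out. Apol9b was 0.15 without those libraries, and omission of 1 library gave -0.29 to 0.02 for Apol9b, -0.05 to 0.20 for Apol9a, -0.32 to 0.04 for Apol7e and -0.18 to 0.02 for Dnajb9. The causes were not tested.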
